A study of Saccharomyces cerevisiae with 45 samples.

Results

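The interval from 3 to 5 min after a shift of budding yeast (Saccharomyces cerevisiae) from 25 °C to 37 °C was examined by comparing the 3 arrays taken at 37 °C for 5 min with the 3 arrays taken at 37 °C for 3 min. These 6 arrays, chosen by their titles, are part of a series of 45 arrays that follows heat shock at 37, 42 and 46 °C, and all 6 belong to the labelled batch A863. Every probe set that the platform annotation ties to 1 gene symbol entered the comparison, which left 5449 genes. The strain is labelled BY4147 with the genotype MATa; his3D1; leu2D0; met15D0; ura3D0, which all groups share, and the cells grew in YPD (rich medium with glucose) before their flask was placed in a water bath. The same batch holds 3 arrays each of the 25 °C control and of 37 °C at 1, 7, 10, 15 and 40 min. The arrays at 42 °C used below, 2 at 3 min and 2 at 5 min, come from batch A927, which has 2 control arrays of its own.

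Heat shock in yeast is read by transcription factors with different targets. Hsf1 is released to switch on chaperone genes when proteins begin to misfold, and Msn2 and Msn4 enter the nucleus under many stresses and switch on genes for membrane protection, antioxidant defence and storage carbohydrates such as glycogen and trehalose. In the same minutes the cell lowers the transcripts of ribosome biogenesis, a large set of nucleolar and assembly factors that build both ribosomal subunits.

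Values are log2 intensities, so a difference of 1 is a 2-fold change, and a probe set carries no absolute scale between genes. A gene was called at a Benjamini-Hochberg adjusted p under 0.05 in limma and a log2 change of at least 1, and "rose" and "fell" are used for called genes alone. The labels leave unsaid if replicates came from separate cultures. The p-values therefore speak only of the scatter between arrays, which may be technical, and the small number of arrays limits the precision. Each of the batch's 24 arrays correlated best with a replicate from its own time point. The probe sets of LEU2, MET17 and URA3, deleted in the labelled genotype, read 4.65 to 5.73 on the 6 arrays, while that of HIS3 read 11.5 to 11.8. The floor of unspecific signal was 5.48, but these 3 genes helped to set it, so it is no independent check of them. Of the markers of mating type, MFA1 read 12.3 to 12.5 and MF(ALPHA)1 4.38 to 4.62. Array 1 of 5 min stood apart, with r of 0.993 with each of its 2 replicates, which had an r of 0.999 with each other. Across genes the median SD of the 3 arrays was 0.104 at 5 min and 0.039 at 3 min. The counts below are therefore also given without that array where they move. At the other times of the batch the median SD was 0.033 to 0.066. The standard errors (SE) and p-values use 1 scatter per gene, pooled over all arrays of the fit. They can therefore be too small for changes that involve the 5 min arrays, and an SE is not the spread of the readings beside it.

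Within these 2 min 79 genes rose and 86 fell, 165 of 5449 or 3.03% (1.45% higher and 1.58% lower). The 3 arrays of 5 min did not overlap the 3 arrays of 3 min for any of the 165, although non-overlap alone held for 56.1% of all genes, and the median change of all genes was -0.01. Rises were larger than falls. Their median was 1.33, with 11 genes at 2 or more and 3 genes at 3 or more, whereas the falls had a median of -1.21 and REI1 was the sole gene past -2. Without array 1 of 5 min the counts were 76 and 75, and 69 of the 79 and 73 of the 86 were among them. With no minimum change 1400 genes were higher and 1429 lower, so that 51.9% of the genes passed the adjusted p and most of the movement was below 2-fold. An unadjusted p under 0.05 in limma was reached by 3100 of the 5449 genes. That is the background for such counts in the lists below, which were not tested against it.

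**Figure D1:**
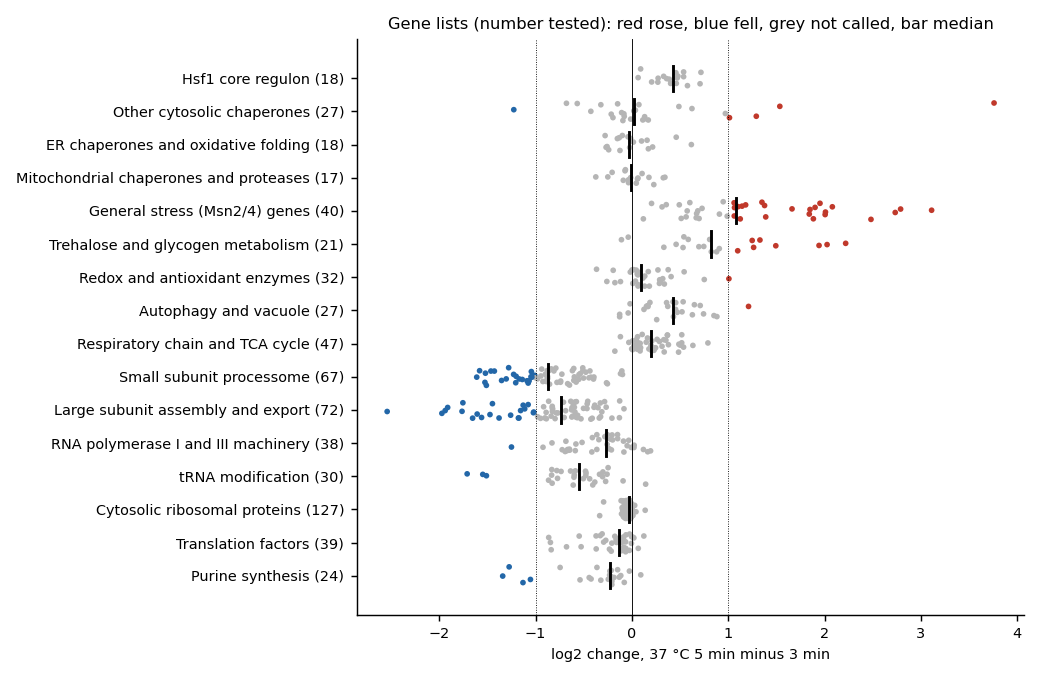
Change of each member of 16 gene lists from 3 to 5 min at 37 °C (log2, horizontal axis), with the number of members tested beside each name. Red points rose, blue points fell, grey points were not called, black bars are list medians and dotted lines mark a change of 1; the general stress list centres at 1.08 and the small subunit processome at -0.87.

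The largest rises were those of HSP26, YNL194C and HSP12. HSP26, a small heat shock protein that holds unfolding proteins, read 9.71, 9.86 and 9.72 at 3 min and 13.70, 13.38 and 13.49 at 5 min. The lowest array of 5 min was far above the highest of 3 min, and the change was 3.76 ± 0.06 (SE; 13.55-fold; adjusted p = 1.56e-20 in limma). YNL194C, a membrane protein related to the eisosome protein Sur7, read 5.75, 5.75 and 5.70 and then 9.54, 9.16 and 9.30, a change of 3.60 ± 0.09 (12.11-fold). Its 3 min level lay just above the floor of 5.48. HSP12, a small protein that associates with membranes under stress, read 10.46, 10.14 and 10.41 and then 13.75, 13.29 and 13.30, a change of 3.11 ± 0.19 (8.65-fold; adjusted p = 1.7e-11). For these 3 genes array 1 was the highest of the 5 min arrays, and without it the changes were 3.67, 3.49 and 2.96.

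**Figure D2:**
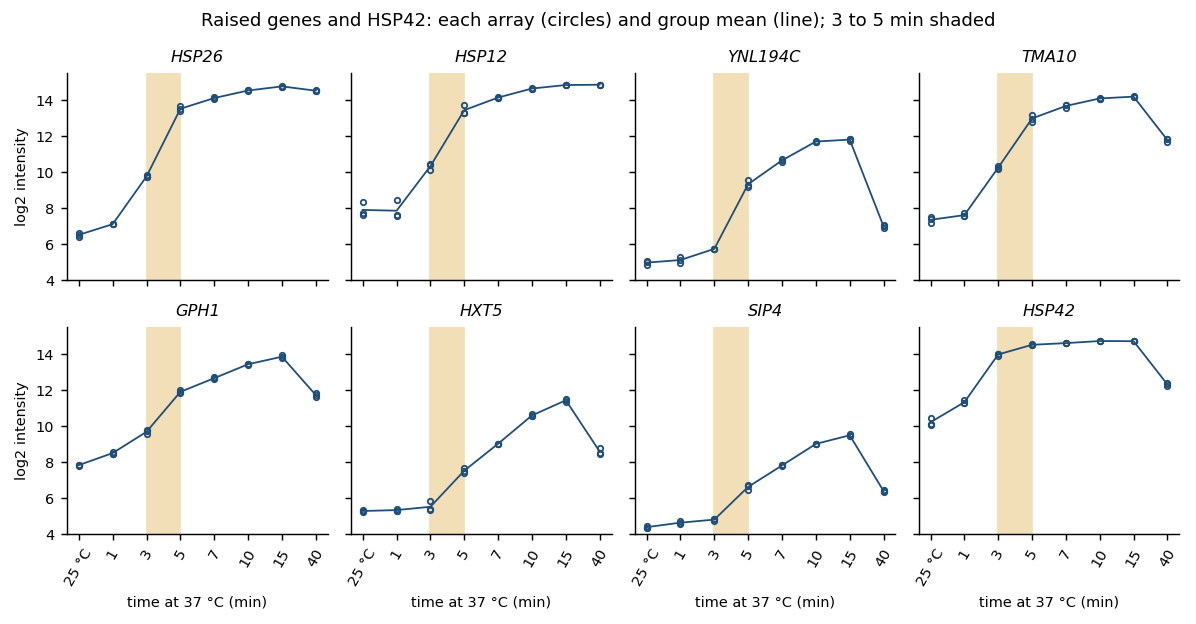
Log2 intensity of 7 raised genes and of HSP42 on every array of the batch (circles) with group means (lines), by time at 37 °C; the times are spaced by order and not to scale, and 3 to 5 min is shaded. HSP26 goes from a mean of 9.76 to 13.52 in the shaded interval, HXT5 and SIP4 leave their 25 °C level there, and HSP42 has already reached 13.99 at 3 min.

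Genes of the general stress response moved as a group. Of 40 listed targets of Msn2 and Msn4, 23 rose and 0 fell, the values of all 40 were above 0, and the median change was 1.08 against -0.01 over all genes. Besides HSP12, these were led by DDR2, a gene induced by many stresses, at 2.79 ± 0.11, TMA10, whose product associates with ribosomes, at 2.73 ± 0.09, and SPI1, a cell wall protein, at 2.48 ± 0.06. DDR2 read 8.54, 8.36 and 8.54 at 3 min and 11.57, 11.06 and 11.18 at 5 min. TMA10 went from 10.23, 10.37 and 10.16 to 13.19, 12.81 and 12.95, and SPI1 from 10.36, 10.49 and 10.27 to 13.04, 12.71 and 12.82. In none of the 3 did the groups overlap. CTT1, the cytosolic catalase, read 9.54, 9.49 and 9.42 and then 11.53, 11.42 and 11.51, a change of 2.01 ± 0.05. HSP30, a plasma membrane protein that restrains the proton pump, rose by 2.08 ± 0.07. Of the 40 members 22 were already called higher at 3 min than at 25 °C, where 1.93% of all genes were, and at 7 min 34 were, against 7.87%. The 3 and 5 min comparisons share the 3 min arrays, so these counts are not independent of the change itself. The 7 min and 25 °C arrays enter its test only through the scatter that the fit pools over the batch.

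Of 21 genes of trehalose and glycogen metabolism 8 rose and 0 fell, with a median of 0.82 against -0.01 over all genes. The 8 are known from glycogen handling, although PGM2 also serves trehalose synthesis, and glycogen and trehalose members were not tested against each other. GPH1, glycogen phosphorylase, read 9.72, 9.55 and 9.80 and then 11.99, 11.83 and 11.91 (2.22 ± 0.06). GAC1, which directs the phosphatase Glc7 to glycogen synthase, went from 6.08, 6.32 and 6.07 to 8.25, 8.11 and 8.18 (2.03 ± 0.11). GIP2, another partner of Glc7, changed by 1.94 ± 0.10 and PGM2, phosphoglucomutase, by 1.49 ± 0.06. The groups were separate in all 4. Both glycogen synthases, GSY1 at 1.33 and GSY2 at 1.26, the branching enzyme GLC3 at 1.25 and the phosphatase partner PIG2 at 1.10 make up the rest. The trehalose synthase subunit TSL1 had a change of 0.91 ± 0.06, under the minimum, after 2.62 in the interval before. Outside the list, IGD1, an inhibitor of glycogen debranching, rose by 1.63 ± 0.09 and SGA1, a glucoamylase known from sporulation, by 1.26 ± 0.09 (these 2 were named only once their values were known).

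In the listed core of genes regulated by Hsf1 none passed the call. This core does not hold every chaperone gene, and some outside it rose, as the next paragraph gives. Of 18 listed genes of the Hsf1 core 0 passed the call from 3 to 5 min in limma, although all 18 had an unadjusted p under 0.05, and the values lay between 0.07 and 0.72 with a median of 0.43. At 3 min 9 of the 18 were called above 25 °C, with a list median of 1.06, against 22 of 40 and 1.24 in the general stress list, and the lists were not tested against each other. HSP42, a small heat shock protein that gathers misfolded proteins, read 14.02, 14.03 and 13.92 at 3 min and 14.51, 14.53 and 14.54 at 5 min, against 10.22 at 25 °C. HSP104, the disaggregase, read 14.02 on all 3 arrays of 3 min and 14.41, 14.39 and 14.42 at 5 min. HSP82, the inducible Hsp90, changed by 0.40 ± 0.03, SSA1, an Hsp70, by 0.46 ± 0.04, SIS1, an Hsp40, by 0.47 ± 0.03 and the mitochondrial disaggregase HSP78 by 0.72 ± 0.06. The groups did not overlap in these genes, and the changes were below 2-fold. The list's median level at 3 min was 13.84, against 10.28 for all genes, and the brightest gene on the 5 min arrays read 15.01. The part that this upper end of the scale plays in the small steps was not tested.

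Among 27 other cytosolic chaperones 4 rose and 1 fell, with a median of 0.02. The risen ones were HSP26, SSE2, an Hsp110 exchange factor, at 1.54 ± 0.06, the inducible Hsp70 SSA4 at 1.29 ± 0.06, and OPI10, the yeast relative of human Hikeshi, which carries Hsp70 into the nucleus, at 1.01 ± 0.06. SSA4 read 12.98, 13.03 and 12.96 and then 14.32, 14.21 and 14.31, from 9.21 at 25 °C. SSE2 went from 10.49, 10.34 and 10.36 to 11.80, 11.98 and 12.02. Groups were separate in both. JJJ3, a J protein of diphthamide synthesis, fell by 1.23 ± 0.14, with 7.74, 7.78 and 7.65 followed by 6.84, 6.49 and 6.16. Without array 1 of 5 min OPI10 stood at 0.98, under the minimum.

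Among the listed heat and stress transcription factors 1 gene was called. Regulators outside that list, such as SIP4, CAT8 and TOD6, also passed the call and are given below. Of 12 heat and stress factors XBP1, a repressor induced by stress, rose, from 7.19, 6.71 and 7.03 to 8.59, 8.26 and 8.19 (1.37 ± 0.10). HSF1 had a change of 0.12, MSN2 of 0.09 and MSN4 of 0.42. CIN5, a bZIP factor, had 0.77, GIS1 0.72, HAA1 0.25, RPN4, the activator of proteasome genes, 0.03, RPH1 -0.12, YAP1 -0.19, SKN7 -0.47 and SFL1 -0.49. For MSN4 the groups did not overlap, with 8.37, 8.26 and 8.39 at 3 min and 8.60, 8.83 and 8.85 at 5 min. The same held for CIN5, GIS1 and HAA1, and for 56.1% of all genes.

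Single members rose in several other lists. Of all genes 1.45% rose, so these calls are given for the single genes and nothing is read about their lists. UBI4, the polyubiquitin gene, went from 12.19, 12.19 and 12.12 to 13.54, 13.47 and 13.48 (1.33 ± 0.06), as 1 of 27 ubiquitin and quality control genes. ATG39, a receptor for the autophagy of nuclear membrane, rose by 1.21 ± 0.08 as 1 of 27 autophagy and vacuole genes, whose median was 0.43, with 23 of the 27 values above 0. RSB1, a transporter of sphingoid bases, rose by 1.21 ± 0.07 as 1 of 27 sphingolipid genes. HXT7, a high-affinity hexose transporter, rose by 1.01 ± 0.07 as 1 of 29 glycolysis and hexose uptake genes. GPX1, a glutathione peroxidase, rose by 1.01 ± 0.08 as 1 of 32 redox and antioxidant genes. These 2 lie at the minimum, and without array 1 of 5 min they stood at 1.00 (below 1 before rounding) and 0.89, and HXT7 also missed the minimum without array 3. The annotation gives a shared probe set for HXT7, so a near-identical gene may add to its signal. PHM8, a phosphatase that degrades nucleotides and lysophosphatidic acid, rose from 9.37, 9.35 and 9.33 to 11.20, 11.03 and 11.11 (1.76 ± 0.07), and it had stood at 6.50 at 25 °C.

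Of the 79 risen genes 42 belong to a list and 37 to none. The share of all genes that belong to a list was not computed, so nothing is read from this count. Among the 37, named after their values were seen, were ARO10 and ARO9, which break down aromatic amino acids, at 1.33 ± 0.06 and 1.06 ± 0.05, LST8, a subunit of both TOR complexes, at 1.35 ± 0.06, CYB2, the mitochondrial lactate dehydrogenase, at 1.15 ± 0.11, the ammonium exporter ATO2 at 1.52 ± 0.13 and SDH6, an assembly factor of succinate dehydrogenase, at 1.09 ± 0.08. LST8 read 11.68, 11.77 and 11.58 and then 13.10, 12.95 and 13.03, and ARO10 9.31, 9.19 and 9.27 and then 10.61, 10.53 and 10.62. Neither gene's groups overlapped. Of 5433 pairs of neighbouring genes 8 had both members called, and all 8 pairs moved in the same direction. Of all single genes 3.03% were called, and an excess of such pairs over randomly drawn ones was not tested. Among the rises the pairs were SDH6 with ARO10, XBP1 with SGA1, YER053C-A with GIP2, GSY1 with IGD1 and YNL195C with YNL194C. Among the falls they were UTP5 with HPT1, SHQ1 with DPH1 and UTP9 with RIX1.

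Of the 86 fallen genes 43 belong to the lists of ribosome assembly. These lists hold 72 and 67 of the 5449 genes tested, and 1.58% of all genes fell. Of 72 genes of large subunit assembly and export 21 fell and 0 rose, with a median of -0.74 and all 72 values below 0. The leader was REI1, a cytoplasmic zinc finger factor that helps recycle export factors from the new subunit. It read 9.52, 9.43 and 9.49 at 3 min and 7.55, 6.68 and 6.59 at 5 min. Array 1 was the highest of the 5 min arrays and still below every 3 min array. The change was -2.54 ± 0.17 (5.82-fold lower; adjusted p = 8.42e-11 in limma), and -2.85 without that array. NOG2, a nucleolar GTPase, went from 10.76, 10.78 and 10.75 to 8.83, 8.85 and 8.70 (-1.97 ± 0.08), and ALB1, which travels with the export factor Arx1, from 11.26, 11.28 and 11.19 to 9.47, 9.30 and 9.15 (-1.94 ± 0.12). DBP7, an RNA helicase, had a change of -1.91 ± 0.08, PUF6 of -1.76 ± 0.10 and the GTPase NOG1 of -1.75 ± 0.09. The groups did not overlap in any of these.

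**Figure D3:**
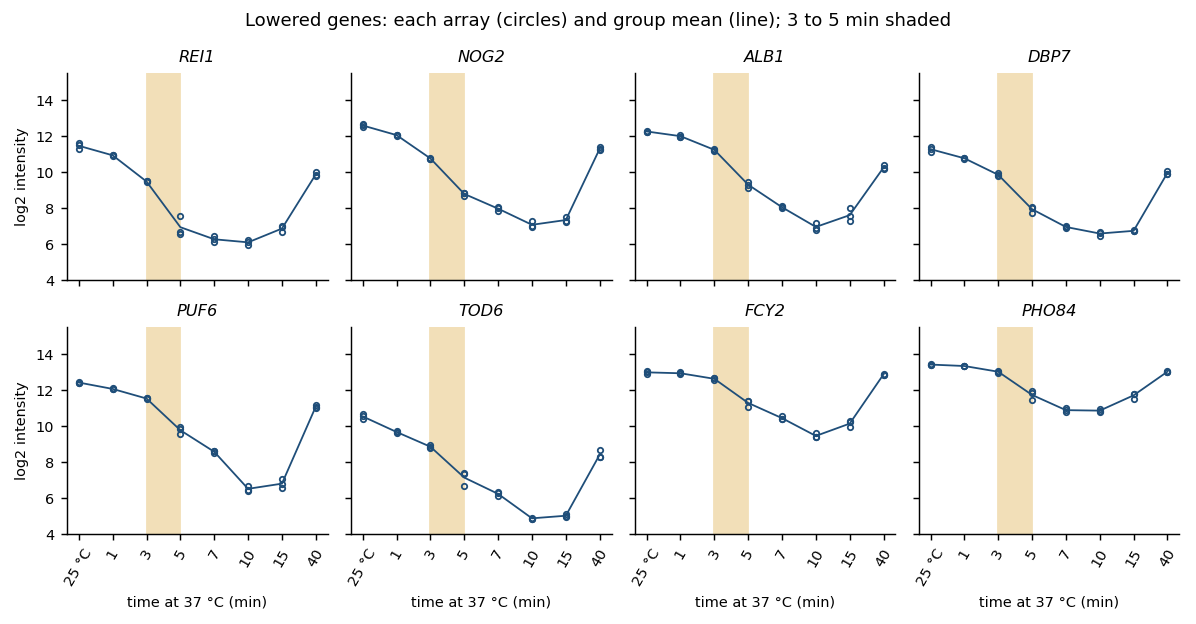
Log2 intensity of 8 lowered genes on every array of the batch (circles) with group means (lines), by time at 37 °C; the times are spaced by order and not to scale, and 3 to 5 min is shaded. REI1 drops from a mean of 9.48 to 6.94, with array 1 of 5 min above the other two, and all 8 genes are higher at 40 min than at 10 min.

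In the small subunit processome, the particle that cuts and folds the early ribosomal RNA, 22 of 67 genes fell and 0 rose, with a median of -0.87 and all 67 values below 0. UTP25 went from 10.38, 10.48 and 10.35 to 8.64, 8.93 and 8.81 (-1.61 ± 0.09), and UTP9 from 10.93, 10.97 and 10.92 to 9.26, 9.44 and 9.38 (-1.58 ± 0.09). NSR1, the yeast nucleolin, went from 12.79, 12.86 and 12.87 to 11.20, 11.45 and 11.29 (-1.53 ± 0.11), and the helicase FAL1 had -1.52 ± 0.07. The groups were separate in all 4. Without array 1 of 5 min 16 processome genes and 20 large subunit genes fell. Both lists stood below 25 °C at 3 min already, with 8 and 9 members called lower where 1.3% of all genes were, and at 7 min 60 of 67 and 63 of 72 were, against 8.13%.

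The machines that make or modify the RNA of the ribosome and of translation moved less. Of 30 tRNA modification genes 3 fell, with a median of -0.55. They were the uracil methyltransferase TRM2 at -1.71 ± 0.12, the dihydrouridine synthase DUS1 at -1.55 ± 0.09 and NCS2, needed to thiolate tRNA, at -1.51 ± 0.07. Of 38 genes of RNA polymerase I and III RRN11, a core factor of polymerase I, fell, from 8.70, 8.55 and 8.63 to 7.65, 7.15 and 7.32 (-1.25 ± 0.14). The 127 cytosolic ribosomal protein genes had a median of -0.03 and a range of -0.33 to 0.14, and 0 passed the call in limma, with 17 at an unadjusted p under 0.05. Of the 127 values 115 were below 0, against 2857 of 5449 over all genes. The list's median level at 3 min was 14.33, near the top of the scale. The call was passed by 0 of 39 translation factors and 0 of 21 aminoacyl-tRNA synthetases, with 23 and 11 at an unadjusted p under 0.05 and medians of -0.13 and -0.10.

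Of 12 regulators of ribosome gene transcription TOD6, a repressor that binds promoters of ribosome biogenesis genes, fell. It read 8.84, 8.97 and 8.77 at 3 min and 6.69, 7.40 and 7.33 at 5 min, so array 1 was the lowest and the groups did not overlap (-1.72 ± 0.14, or -1.49 without array 1). Its paralogue DOT6 stayed at 11.00, 10.93 and 11.03 and then 11.00, 11.07 and 10.89, a change under 0.01 in size that did not pass the test. The other 10 lay between -0.60 for UTP22 and 0.51 for CTH1, with IFH1 at -0.51, FHL1 at -0.47, the kinase SCH9 at -0.38, RAP1 at -0.18, SFP1 at -0.13, HMO1 at 0.04, CRF1 at 0.25 and STB3 at 0.33.

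Single genes of nucleobase and phosphate uptake fell as well, where 1.58% of all genes fell. In the purine list 4 of 24 genes fell and 0 rose, with a median of -0.23, and the 4 are permeases and salvage enzymes, 1 of them for uridine. FCY2, the permease for purines and cytosine, went from 12.66, 12.57 and 12.67 to 11.05, 11.42 and 11.41 (-1.34 ± 0.09). FUI1, the uridine permease, went from 10.88, 10.93 and 10.86 to 9.55, 9.65 and 9.66 (-1.27 ± 0.06), HPT1, the salvage enzyme for hypoxanthine and guanine, from 12.58, 12.59 and 12.58 to 11.50, 11.45 and 11.40 (-1.13 ± 0.05), and AAH1, adenine deaminase, had -1.05 ± 0.07. None of these groups overlapped. The 11 pyrimidine genes had 0 calls in limma, with 11 at an unadjusted p under 0.05, and ran from -0.72 for the uracil permease FUR4 to 0.16 for URA8. Of 15 phosphate genes 2 fell, namely PHM6 at -1.70 ± 0.12 and the high-affinity phosphate transporter PHO84, from 13.07, 13.04 and 12.98 to 11.47, 11.93 and 11.82 (-1.29 ± 0.09), while PHM8 rose. FAR1, which arrests the cell cycle in mating, fell by 1.21 ± 0.07 as 1 of 20 cyclin and cell cycle genes.

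Of the 86 fallen genes 56 belong to a list, a count from which nothing is read, as for the risen genes. Examples outside the lists are HMT1, an arginine methyltransferase of RNA-binding proteins, with 11.12, 11.08 and 11.16 and then 9.69, 9.33 and 9.29 (-1.68 ± 0.10), MTO1, a mitochondrial tRNA modification enzyme, at -1.33 ± 0.08, and BMT6, a methyltransferase of ribosomal RNA named after its values were seen, at -1.50 ± 0.10.

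Genes that started to move in the interval were defined as those called in it that lay within 0.5 of their 25 °C level at both 1 and 3 min. There were 18 of them, 0.33% of all genes, with 13 higher and 5 lower, and widening the limit to 1 gave 82. HXT5, a hexose transporter of slow-growing cells, was within 0.24 of its 25 °C level at 3 min, at 5.39, 5.35 and 5.82, and reached 7.66, 7.42 and 7.51 at 5 min (2.01 ± 0.09). PHM7, a membrane protein of unknown role, went from 6.59, 6.63 and 6.73 to 8.89, 8.44 and 8.48 (1.95 ± 0.11). SIP4, an activator of gluconeogenic genes, went from 4.83, 4.85 and 4.74 to 6.75, 6.70 and 6.44 (1.82 ± 0.07). PIN3, a protein of the actin cytoskeleton that can promote prions, went from 11.20, 11.10 and 11.08 to 13.01, 12.58 and 12.71 (1.64 ± 0.08). No groups overlapped. SIP4 was below the floor at 3 min, and HXT5, SIP4 and CRC1 were below it at 25 °C, so an earlier rise of these genes could have gone unmeasured.

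The other starting genes had smaller changes. CAT8, which activates gluconeogenic genes and SIP4 itself, rose by 1.11 ± 0.10, and the mitochondrial carnitine carrier CRC1 by 1.32 ± 0.12. YNL195C, the neighbour of YNL194C, rose by 1.25 ± 0.06, RTC2, a vacuolar transporter, by 1.21 ± 0.10, YNL092W by 1.13 ± 0.09, YOR376W-A by 1.11 ± 0.07, NQM1, a transaldolase, by 1.06 ± 0.12 and FMP33 by 1.03 ± 0.10, with GPX1 as given. The 5 that fell were FCY2, PHO84, ATF2, an alcohol acetyltransferase, at -1.18 ± 0.11, HPT1, and HO, the endonuclease of mating type switching, at -1.04 ± 0.06. HO read 11.05, 10.97 and 10.97 and then 9.98, 10.00 and 9.87. Array 1 of 5 min carried 5 of the 18, since NQM1, FMP33, GPX1, YNL092W and ATF2 stood at 0.86, 0.86, 0.89, 0.99 and -0.99 without it, which leaves 9 higher and 4 lower. At 7 min the 13 risen ones were 1.68 to 3.74 above 25 °C and the 5 fallen ones 2.12 to 2.62 below it. The 7 min arrays entered the choice only through the scatter that the fit pools over the batch. The 25 °C arrays also set the level that the genes had to stay near. At 40 min 12 of the 18 were still called in the same direction.

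The intervals from 1 to 3, 3 to 5 and 5 to 7 min last equally long, so their changes were compared directly. Against 1 to 3 min, 21 genes had a higher change from 3 to 5 min (0.385%) and 26 a lower one (0.477%). Of the 21, 18 were risen genes, led by YNL194C, which moved by 0.62 and then by 3.60, a difference of 2.98 ± 0.15 (adjusted p = 2.4e-11 in limma). HXT5 differed by 1.82 ± 0.16, SIP4 by 1.65 ± 0.12 and PHM7 by 1.61 ± 0.20, and 9 of the 13 genes that started upward were among the 21, a count that their choice, with little change up to 3 min, largely fixes. HSP26 had moved by 2.65 before and moved faster from 3 to 5 min, by 1.11 ± 0.11. Without array 1 of 5 min the 21 became 16.

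Most of the 26 lower ones, 18, were rises that slowed. SSA4 had risen by 3.56 from 1 to 3 min and rose by 1.29 from 3 to 5 min, a difference of -2.27 ± 0.11. HSP42 went from 2.65 to 0.54 (-2.12 ± 0.12), HSP78 from 2.62 to 0.72 (-1.91 ± 0.10), the Hsp40 APJ1 from 2.51 to 0.62 (-1.88 ± 0.13) and BTN2, which sorts misfolded proteins, from 2.14 to 0.27 (-1.87 ± 0.14). HSP104 differed by -1.03 ± 0.08 and RPN4, which had moved by 1.09 and then by 0.03, by -1.06 ± 0.10. Of the Hsf1 core list 5 of 18 were in this set. The other 8 had values below 0, and 7 of them fell, among them PUF6 at -1.23 ± 0.17, ALB1 at -1.18 ± 0.21, NSR1 at -1.12 ± 0.18, NOG1 at -1.09 ± 0.15 and FCY2 at -1.03 ± 0.15.

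**Figure D4:**
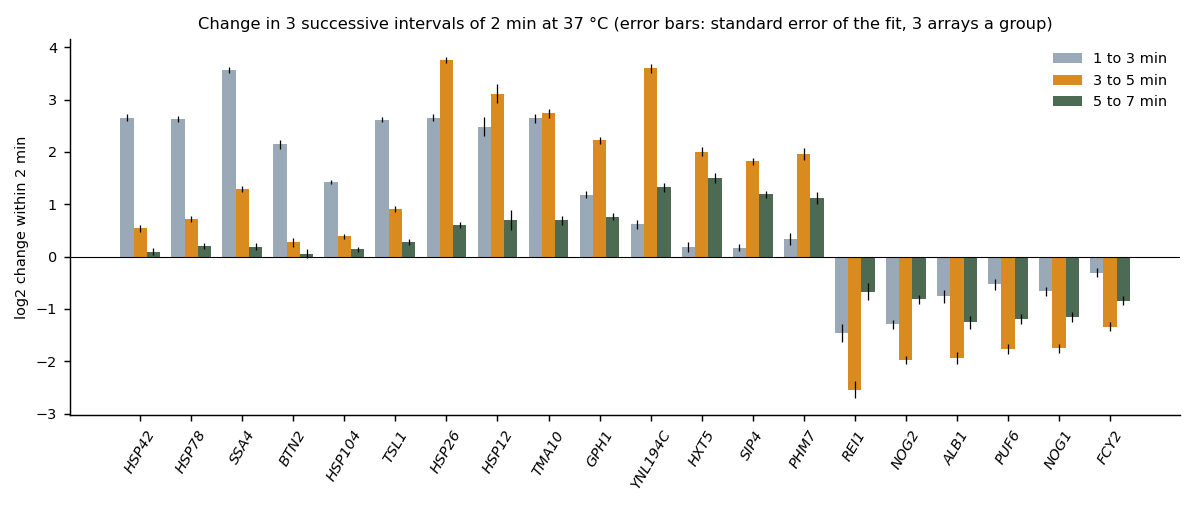
Log2 change of 20 genes in the intervals from 1 to 3 (grey), 3 to 5 (orange) and 5 to 7 min (green) at 37 °C, with standard errors of the fit as error bars. HSP42 moves mostly in the first interval, with 2.65 against 0.54, YNL194C in the second, with 0.62 against 3.60, and REI1 moves by -0.67 in the last after -2.54.

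The change from 5 to 7 min was compared with that from 3 to 5 min in the same way. From 5 to 7 min 10 genes had a higher change than from 3 to 5 min (0.184%) and 28 a lower one (0.514%), and 26 of these 28 were risen genes. Both changes of pace contain the change from 3 to 5 min itself, so nothing is read from how many risen genes they hold. HSP26 moved by 0.60 from 5 to 7 min, a difference of -3.16 ± 0.11, HSP12 by 0.70 (-2.41 ± 0.32), YNL194C by 1.32 (-2.28 ± 0.15) and TMA10 by 0.70 (-2.04 ± 0.15). All 79 risen genes and 80 of the 86 fallen ones had a smaller change in size from 5 to 7 min than from 3 to 5 min, counts that share the 5 min arrays. REI1 moved by -0.67 after -2.54 (1.87 ± 0.29) and HMT1 by -0.28 after -1.68 (1.40 ± 0.18). The 10 higher ones numbered 16 without array 1 of 3 min, 19 without array 2 of 5 min and 22 without array 3 of 5 min. NSR1 fell by 2.25 from 5 to 7 min, more than before, but its difference of -0.73 ± 0.18 was under the minimum.

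The arrays of 7 min and of 25 °C enter the comparison of 3 and 5 min only through the scatter that the fit pools over the batch. Between them all 79 risen genes were called higher and all 86 fallen genes lower at 7 min. The medians were 3.31 and -3.10, and the background was the 7.87% and 8.13% given above. Both calls share the pooled scatter, so they are not fully independent. At 40 min 65 of the 79 and 62 of the 86 were still called in the same direction, where 7.08% and 7.21% of all genes were, and 13 and 24 lay within 1 of their 25 °C level. HSP26 and HSP12 stayed high, at 14.53 and 14.86, HSP30 came back to 1.15 above 25 °C, and RSB1 was 1.25 below it. Of the fallen genes FCY2, HPT1 and MTO1 were near 25 °C at 40 min, with differences of -0.11, -0.14 and 0.15, and HO was 2.26 below.

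The same interval at 42 °C had 54 genes higher (0.991%) and 27 lower (0.496%), on 2 arrays a time from another batch. Of the 37 °C genes 16 of 79 and 21 of 86 were called there in the same direction and 0 in the opposite one, and 79 of 79 and 76 of 86 had the same sign. Across all 5449 genes the changes at both temperatures had an r of 0.56, and across the 165 called genes of 0.83, given as a description. Tested directly, 55 genes had a higher change at 42 °C than at 37 °C (1.01%) and 26 a lower one (0.477%). Of the 26, 21 were genes that rose at 37 °C, and of the 55, 17 were genes that fell there. The difference contains the 37 °C change by which those genes were called, so nothing is read from these shares.

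HSP26 read 12.54 ± 0.12 (SD, n = 2) at 42 °C 3 min and 13.64 ± 0.03 at 5 min, so it was higher there at 3 min than at 37 °C (9.76 ± 0.09, n = 3) and similar at 5 min (13.52 ± 0.16), although levels in different batches may differ in scale. Its changes of 1.10 and 3.76 differed by -2.66 ± 0.09 (SE; adjusted p = 3.54e-17 in limma). HSP12 differed by -2.51 ± 0.27, GPH1 by -2.15 ± 0.13, SPI1 by -1.88 ± 0.10 and TMA10 by -1.73 ± 0.14. GPH1 stood 5.12 above its own control at 42 °C 3 min, and 1.85 above at 37 °C 3 min. The opposite order was seen in PHM7, which moved by 2.96 ± 0.13 at 42 °C and 1.95 ± 0.11 at 37 °C, a difference of 1.00 ± 0.17. YNL194C at 2.79 ± 0.10, HXT5 at 2.27 ± 0.11, YNL195C at 1.62 ± 0.13 and SIP4 at 1.26 ± 0.09 rose at 42 °C too, and their differences from 37 °C, -0.81, 0.26, 0.37 and -0.56, did not pass the call.

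**Figure D5:**
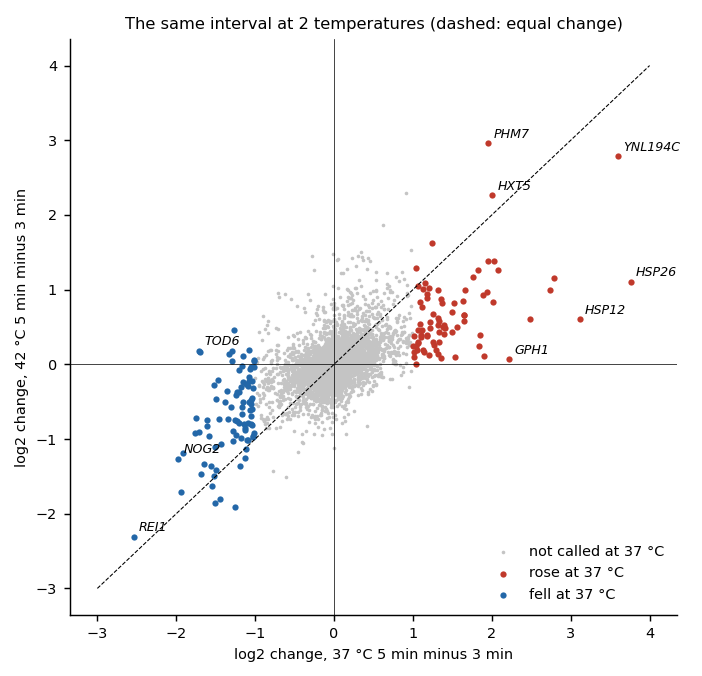
Log2 change from 3 to 5 min at 37 °C (horizontal) and at 42 °C (vertical) for 5449 genes; red points rose and blue points fell at 37 °C, grey points were not called, and the dashed line marks equal change. HSP26 lies at 3.76 and 1.10, PHM7 above the line at 1.95 and 2.96, and TOD6 at -1.72 and 0.18.

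Among the fallen genes REI1 had similar changes at both temperatures, -2.31 ± 0.20 at 42 °C with a difference of 0.23 ± 0.26 that did not pass the test, and so did DUS1, at -1.63 ± 0.11 with a difference of -0.08 ± 0.15. TOD6 had a change of 0.18 ± 0.16 at 42 °C, where it already stood 2.19 below its control at 3 min, and the difference was 1.90 ± 0.21. FUI1 moved by 0.46 ± 0.07 at 42 °C, against -1.27 at 37 °C, a difference of 1.74 ± 0.09. PHO84 differed by 1.47 ± 0.14, but its 25 °C level was 7.67 in the 42 °C batch and 13.43 in the 37 °C batch. PHM6 differed by 1.86 ± 0.18 and read 5.36 at 42 °C 3 min, below the floor, so a further fall could not have been measured.

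The remaining lists had 0 genes called from 3 to 5 min in limma. Of 47 genes of the respiratory chain and TCA cycle 43 had values above 0, with a median of 0.20 and 29 at an unadjusted p under 0.05. In glycerol metabolism 12 genes reached 0.97 for GPP2, the glycerol phosphatase, and 0.63 for GPD1, with 9 at an unadjusted p under 0.05. The 36 proteasome genes had a median of 0.02, with 7 at an unadjusted p under 0.05, and 10 histone genes lay between -0.06 and 0.12, with 1. Folding genes of the endoplasmic reticulum and of mitochondria had medians of -0.03 and -0.01, with 13 of 18 and 8 of 17 at an unadjusted p under 0.05. The 13 other such lists, which run from chaperonin and prefoldin through protein kinase A signalling, amino acid synthesis, ergosterol, iron and copper uptake and mating to nuclear transport, had medians between -0.17 and 0.17, with 7 to 22 members at an unadjusted p under 0.05.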

How the data were processed

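The table deposited by the authors holds a log2 intensity for every probe set on every array. Per the submitters' processing notes it came from RMA, run through affy, and RMA corrects background, quantile-normalises the arrays and summarises probes by median polish. Neither versions nor a build is named (not given in the sources used here). Quantile normalisation removes any overall change in messenger RNA per cell. Of 5900 probe sets 137 were controls, 265 had no gene name and 5498 had 1 symbol. All 5498 were found by identifier in the R64 annotation, and 12 symbols were brought up to date. Where a gene had more than 1 probe set (47 genes), the brightest stood for it. The floor is the 95th percentile of 29 probe sets taken to have no target, those of LEU2, MET17 and URA3 among them. No pair of arrays held identical values.

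In R 4.3.3, group means were fitted to the 24 arrays of batch A863 by lmFit and moderated by eBayes of limma 3.58.1, which left 16 residual degrees of freedom, and for the 42 °C comparisons to these and the 10 arrays of batch A927 (21 residual degrees of freedom). Tests were two-sided, adjusted by Benjamini-Hochberg over 5449 genes. On simulated data the procedure recovered 100 of 100 genes changed by 1.5 and 100 of 100 changed by 3 (log2) from 3 to 5 min, with 0 false calls. The simulated noise was independent, with the same SD on all 24 arrays for a given gene. It held no array that stood apart as array 1 of 5 min did, and both changes lay well above the minimum. The simulation therefore checks the working of the procedure and does not measure how reliable the calls are here. Alternatives covered the arrays in the fit, array scaling, a floor filter, the prior's intensity trend, array weights, a test against 2-fold, no minimum change, the mean of probe sets, the replicate number as a block and each array left out.

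The genes compared, the gene lists and the tests were chosen with earlier results of these data known. Named genes are the 10 largest rises and falls with a standard name, up to 4 called members of each list, every member of a list of 12 or fewer, the 6 largest starting genes each way, the 4 largest in each other contrast among called genes and 10 fixed heat shock and stress genes. Other genes were named after their values were seen. Deviations from the group means of same-numbered 3 and 5 min arrays had r of 0.257, 0.219 and 0.14. Array 2 of 3 min and array 3 of 5 min had 0.207, above the 0.14 of the arrays numbered 3. These values therefore do not settle if the numbers pair the arrays, and the labels do not state it. The fit reported has no block, and counts with the replicate number as a block are given below.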

Additional observations from a re-analysis of the deposited data

Results flagged for a closer look

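The change from 3 to 5 min was tested for a difference between 37 and 42 °C, and 55 genes had a higher change at 42 °C and 26 a lower one. Values below subtract the 37 °C change from the 42 °C change on the log2 scale, for named genes that passed this test of the difference itself. Among genes that rose at 37 °C it was lower at 42 °C for HSP26 (-2.66), HSP12 (-2.51), GPH1 (-2.15), SPI1 (-1.88), TMA10 (-1.73), DDR2 (-1.63), SOL4, an enzyme of the pentose phosphate pathway (-1.59), SSE2 (-1.44), LST8 (-1.26), CTT1 (-1.18), SSA4 (-1.10), PGM2 (-1.07) and UBI4 (-1.03). These 13 genes stood 2.85 to 6.30 above their own 25 °C control at 42 °C 3 min. PHM7 alone among the named risen genes had a higher change at 42 °C (1.00). Among the others the difference was above 0 for TOD6 (1.90), PHM6 (1.86), FUI1 (1.74), FUR4 (1.68), MTO1 (1.47), PHO84 (1.47), FAL1 (1.24), FAR1 (1.13), BMT6 (1.04) and NOG1 (1.03). FUR4 was not called at 37 °C (-0.72) and moved by 0.96 at 42 °C. The temperatures lie in different batches, so temperature and batch cannot be told apart in these differences, although each change is taken within a batch.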

How the results depend on the processing

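Fitting all 45 arrays, which include replicates of another batch that disagree, gave 14 genes higher and 19 lower from 3 to 5 min, 1 and 2 for the change of pace against 1 to 3 min, 1 and 2 for that against 5 to 7 min, 2 starting genes, and 14 and 0 for the difference between temperatures. For that 0, 265 genes were lower at an unadjusted p under 0.05 in limma, 4 of them at least 2-fold. A test against a 2-fold change gave 45 and 28, and no minimum change 1400 and 1429. A limit of 1 on the earlier changes gave 82 starting genes. Leaving out each array in turn gave 76 to 84 genes higher and 75 to 94 lower, 13 to 22 starting genes, 16 to 23 and 23 to 32 for the first change of pace, 9 to 22 and 25 to 32 for the second, and 55 to 60 and 23 to 31 for the difference between temperatures. Centring on hybridisation controls shifted the median of all genes to -0.07 and gave 71 and 97, or 42.3% higher against 47.9%. Centring on the median gave 82 and 81. The replicate block gave 79 and 86, 11 in place of 10 and 56 in place of 55 for 2 counts, and changed no call of a named gene in the change from 3 to 5 min. The floor filter, the intensity trend, the mean of probe sets and the 6 arrays alone each gave 79 and 86. Array weights, which did not converge fully, gave array 1 of 5 min a weight of 0.0616. Of the 146 named genes no direction reversed. Signal near the floor and near the top of the scale may limit the measured changes, which was not tested.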

Other observations

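Array 1 of 5 min differed by more than 1 from the mean of the other two in 12 genes, none of them called, and 5 of the 12 differed the same way at 3 min. Those 5 were CTR1 and CTR3, both copper transporters, the reductases FRE1 and FRE7, which serve copper and iron uptake, and IRC7. CTR1 read 9.29, 12.16 and 12.31 at 3 min and 8.52, 11.70 and 12.09 at 5 min, so array 1 was the low one at both times. The same array number was low at 1 min, with 10.50, 12.31 and 12.52, and less so at 25 °C, with 12.16, 12.80 and 12.91. At 7 min CTR1 read 12.52, 12.61 and 12.58, and at 40 min 12.81, 12.78 and 12.70, with the 3 arrays as close at 10 and 15 min. FRE1 read 10.03, 12.61 and 12.64 at 3 min, 9.11, 11.61 and 12.03 at 5 min and 12.08, 12.18 and 12.13 at 7 min. FRE7 went from 6.46, 8.30 and 9.43 at 5 min to 10.42, 10.57 and 10.49 at 7 min. Whether the 7 min arrays and those before them came from the same cultures is not stated, and its part in the comparison of 5 to 7 min was not tested. None of these genes passed the call from 3 to 5 min.

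The poly-A spike controls had a median of 6.54 to 6.72 on the 3 min arrays and 5.96, 6.50 and 6.36 on the 5 min arrays. The signal of the ACT1 probe set at the 3' end exceeded that at the 5' end by 0.50 to 0.53 at 3 min and by 0.62, 0.53 and 0.54 at 5 min, so array 1 of 5 min was the extreme in both measures, and the part of this in the differences of that array was not tested.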
